A study of Mus musculus with 8 samples.

Results

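The light zone comparison asked how germinal centre B cells of the light zone differed in gene expression when they lacked Bach2. Of 23234 genes in the deposited table, 10610 had at least 1 FPKM (a read density corrected for transcript length and library size) in at least 2 of 8 libraries and were tested. All genes tested belong to the comparison, which set 2 libraries labelled Bach2(f/f) against 2 labelled Bach2(+/+). RNA came from mouse spleen B cells of C57BL/6 background that had been transferred into wild-type recipients and sorted on day 10 after immunization with NP-CGG in alum. Every donor carried the floxed Prdm1(f/f) alleles, an ERT2cre(KI/+) allele, which encodes a recombinase activated by tamoxifen, and B1-8hi(KI/+), which gives an antigen receptor that binds the hapten NP. The control donors were Bach2(+/+) and are called sKO here, because only Prdm1 was to be deleted, and the others were Bach2(f/f) and are called dKO. Single libraries are written with their replicate number, as in dKO LZ1. Recipients received tamoxifen at 3 mg for 3 days before immunization, and donor cells that bound NP and lacked CD38 were sorted from the pooled spleens of 5 recipients, with about 30000 cells in a library. Light zone (LZ) cells were taken as CD86 high and CXCR4 low, and dark zone (DZ) cells, which served for the spread between libraries and for the comparison of zones, as CD86 low and CXCR4 high. Cells with intact Prdm1 were not analysed here, so each difference is one between cells that all lack Prdm1 by design. The labels do not say whether the libraries of a group came from separate pools of mice, and p-values then measure only the spread between these libraries. A lower summed level can come from fewer cells of a kind or from less RNA in each cell, and these cannot be told apart in bulk RNA.

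BACH2 is a repressor of transcription in B cells that pairs with small MAF proteins and binds sites shared with AP-1 and NRF2 factors. It is known for restraining the plasma cell programme, in which Prdm1 (encoding BLIMP1) is a central factor, and for its part in germinal centre and memory B cell development. In the light zone, germinal centre B cells take up antigen through their receptor, present it on MHC class II to helper T cells and, when they receive help, raise growth genes and return to the dark zone to divide.

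Bach2 transcripts were at 49.8 and 53.4 FPKM in sKO and 64.5 and 62.7 FPKM in dKO and thus higher in both libraries labelled as lacking it (0.30 ± 0.044, adjusted p = 0.00454, limma). Exons outside a deletion still contribute to a gene-level FPKM. The sources used here do not give the deleted exon, and Bach2 levels therefore check nothing about the labels. Prdm1 stayed under the filter on low values, at 0.0577 and 0.0184 FPKM in sKO and 0.980 and 0.967 FPKM in dKO. The same held for the plasma cell surface gene Sdc1, at 0.0666 and 0.0637 FPKM in sKO and 0.606 and 0.505 FPKM in dKO. For both genes the dKO libraries were the higher ones, and neither was tested. The labelled cell type was checked against its markers. The 17 germinal centre B cell markers summed to 5208 and 5364 FPKM in sKO LZ and 4621 and 4615 FPKM in dKO LZ, with 8 lower (4 without sKO LZ2, 4 without dKO LZ1, 4 without dKO LZ2, 5 without dKO DZ1, 5 without dKO DZ2) and 1, S1pr2, higher in dKO at the threshold given below. Some of them, such as Cd79a and Cd22, also belong to lists described below. The 14 plasma cell markers summed to 845 and 799 FPKM in sKO and 946 and 936 FPKM in dKO, and of 9 tested 4 were higher (2 without sKO LZ2, 1 without dKO LZ1, 2 without dKO LZ2) and 0 lower. Both sums thus differed by genotype without overlap, and their part in the results was not tested. The light zone genes Cd83 and Cd86 were at 291 to 359 and at 77.4 to 106 FPKM in the LZ libraries and at 71.4 to 98.3 and at 31.2 to 38.4 FPKM in the DZ libraries. CD86 protein was used to sort the zones, so the Cd86 levels are no separate check of the zone label. Of 12 T cell marker genes, 9 were under 0.5 FPKM in all 4 LZ libraries, among them Cd3d, Cd3e, Cd3g, Cd4, Cd8a and Thy1. The 12 genes summed to 115.5 and 106.4 FPKM in sKO and 102.2 and 108.3 FPKM in dKO. Of 3 tested, 1 fell. The stromal collagen genes Col1a1, Col1a2 and Col3a1 were also under 0.5 FPKM there. The 10 stromal and endothelial genes summed to 101.5 and 119.6 FPKM in sKO and 62.7 and 65.5 FPKM in dKO. Of these, 2 were tested, Cr2 and Pecam1, and both fell, as described below with receptor signalling genes. Neutrophil transcripts varied by replicate: S100a8 was at 3.03 and 21.7 FPKM in sKO and 5.51 and 53.1 FPKM in dKO, highest in replicate 2 of each genotype, and the 17 myeloid and neutrophil genes summed to 18.8 and 71.9 FPKM in sKO and 31.0 and 166.6 FPKM in dKO. Of 10 of them that were tested, Tyrobp was higher and Mpeg1 lower in dKO. Without dKO LZ1 the count higher was 3, without any 1 of the other libraries it was 0, and none was lower without sKO LZ2, dKO LZ1 or dKO LZ2. The part of these transcripts in the results was not tested. The FPKM of a library summed to 502214 to 540885 over all genes, Pearson correlation across genes between replicates was 0.946 to 0.960, and relative depth judged from the steps of low values differed by up to 1.10 times among the LZ libraries.

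Changes below are dKO minus sKO on the log2(FPKM + 1) scale, given ± SE from 2 libraries in each group. This scale understates the change of low genes. A gene is called, and is said to have risen or fallen, at an adjusted p under 0.05 (limma, Benjamini-Hochberg over all genes tested). In LZ cells 3299 of 10610 genes (31.1%) were called, 1948 higher (18.4%) and 1351 lower (12.7%) in dKO, and the median change of all genes tested was 0.02. At an unadjusted p under 0.05 the number was 4607. With the upper quartile of the genes tested as the scale, an alternative chosen after seeing the data, 45.5% of the called genes were higher in dKO, against 59.0% with the deposited scale, so the balance of directions depended on scaling. Of the called genes, 713 changed by at least 0.5, of which 378 were higher and 335 lower. Leaving out dKO LZ replicate 1 lowered the count to 1703, and leaving out the other dKO LZ library lowered it to 1948. The libraries of the genotypes did not overlap in 65.9% of all genes tested, so lack of overlap by itself sets few genes apart.

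Gene lists are described below by how many of their tested members rose or fell, to be read against the 18.4% and 12.7% of all genes, and by their median change. These are descriptions without a test of the list. Leaving out 1 library changed counts of 2 or fewer by no more than 2 genes, except where stated. Where a count moved by over 1.5 times without 1 library, that value follows it.

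**Figure D1:**
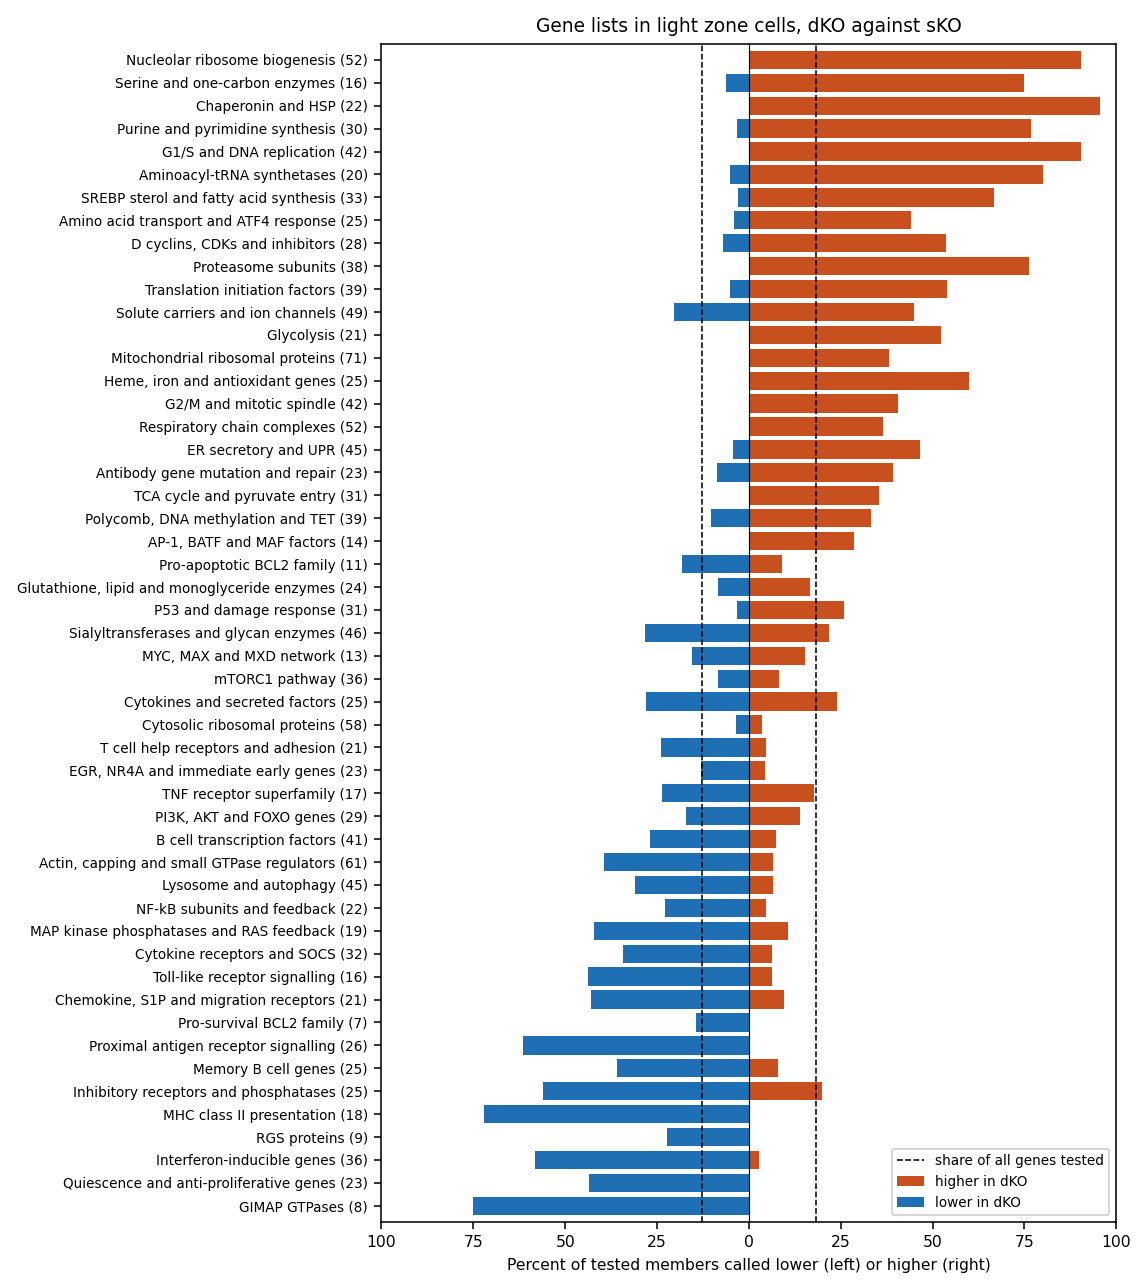
Share of the tested members of each gene list, the lists of cell type markers left out, called higher (right, orange) or lower (left, blue) in dKO than in sKO light zone cells, in percent, with the number tested in parentheses and dashed lines at the 18.4% and 12.7% of all genes tested. Lists are ordered by median change, from GIMAP GTPases (6 of 8 lower) to nucleolar ribosome biogenesis (47 of 52 higher).

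Among the 30 largest rises of genes with at least 5 FPKM, several encode regulators of signalling and lipid metabolism besides Mgll (monoacylglycerol lipase), Il10 and the sialyltransferase gene St3gal6, which led the ranking. Dusp5, a nuclear phosphatase that inactivates ERK, was at 8.29 and 7.54 FPKM in sKO and 20.3 and 18.6 FPKM in dKO (1.20 ± 0.070). Pde2a, a phosphodiesterase that degrades cyclic nucleotides, was at 5.83 and 5.69 FPKM in sKO and 13.8 and 14.1 FPKM in dKO (1.15 ± 0.045). Tox2, of the TOX family of HMG-box factors, was at 2.84 and 2.41 FPKM in sKO and 7.05 and 6.12 FPKM in dKO (1.07 ± 0.092). All 3 genes were more than doubled in FPKM in each dKO library relative to each sKO library. Slpi, a secreted inhibitor of leukocyte proteases, was at 10.2 and 11.5 FPKM in sKO and 24.7 and 26.3 FPKM in dKO (1.16 ± 0.090). Uchl1, a neuronal-type deubiquitinase, was at 2.12 and 2.41 FPKM in sKO and 6.14 and 6.69 FPKM in dKO (1.18 ± 0.088). Emb, encoding embigin, a partner of monocarboxylate transporters, was at 2.75 and 2.67 FPKM in sKO and 7.86 and 6.33 FPKM in dKO (1.12 ± 0.11). Here too the dKO libraries lay well above the sKO libraries. Bcat1, the cytosolic branched-chain aminotransferase, Fads2, a fatty acid desaturase, Cdk6, a G1 cyclin-dependent kinase, and Srm, spermidine synthase, rose by 0.89 to 0.99. Adjusted p over these 10 genes was 0.000324 to 0.00173 (limma). Srm was named after its value was seen.

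The falls of similar size included transporters, receptors and interferon-inducible genes. St8sia6, a sialyltransferase that adds a second sialic acid, was at 7.53 and 8.06 FPKM in sKO and 3.45 and 3.29 FPKM in dKO (-1.01 ± 0.076). Slc28a2, a concentrative nucleoside transporter, was at 30.6 and 32.9 FPKM in sKO and 14.7 and 16.3 FPKM in dKO (-0.99 ± 0.066). Lrrk2, a large kinase and GTPase expressed in B cells, was at 28.8 and 32.1 FPKM in sKO and 15.3 and 15.3 FPKM in dKO (-0.95 ± 0.068). Each of them was about halved. Abca1, the cholesterol efflux transporter, was at 7.62 and 8.67 FPKM in sKO and 3.75 and 3.71 FPKM in dKO (-0.95 ± 0.082). Cyp4f18, a cytochrome P450 of leukocytes, was at 36.5 and 34.3 FPKM in sKO and 18.3 and 17.6 FPKM in dKO (-0.94 ± 0.065). Kynu, a kynureninase of tryptophan breakdown, was at 11.6 and 13 FPKM in sKO and 6.48 and 5.79 FPKM in dKO (-0.90 ± 0.10). In none of the 6 genes did the libraries of the genotypes overlap, which the rule for naming required. Adjusted p over these 6 genes was 0.000887 to 0.00208 (limma). The beta globin gene Hbb-b2, an erythroid transcript, was at 23.7 and 22.3 FPKM in sKO and 12.7 and 9.81 FPKM in dKO (-0.98 ± 0.13). Of 3 erythroid markers tested Hbb-b2 was the one that fell, and 0 rose. Hba-a1 was at 1.46 and 6.37 FPKM in sKO and 5.92 and 3.75 FPKM in dKO (adjusted p = 0.551, limma). Hbb-b1 was at 0.00283 and 6.74 FPKM in sKO and 13.5 and 11.9 FPKM in dKO (adjusted p = 0.162, limma). The 9 erythroid genes in the table summed to 25.8 and 36.5 FPKM in sKO and 32.9 and 27.3 FPKM in dKO, so the list did not follow Hbb-b2, and 2 of its members rose without sKO LZ2. The globin genes are close copies that may share reads. Alas2, Slc4a1 and Klf1, further erythroid genes, were under 0.5 FPKM in every LZ library.

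**Figure D2:**
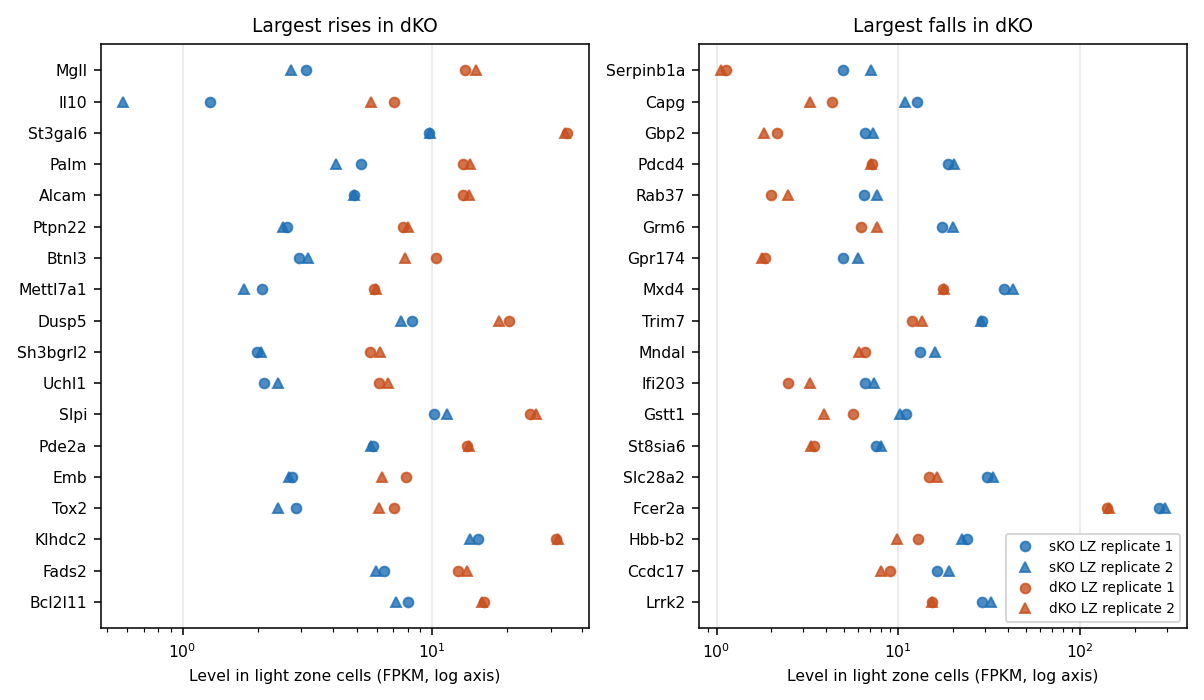
Level in each light zone library (FPKM, log axis) of genes with the largest rises (left) and falls (right) in dKO, with sKO in blue, dKO in orange, replicate 1 as circles and replicate 2 as triangles. Rpl26 (1.62), Tyrobp (1.45) and Apoo-ps (1.02) also rank among these rises and were left out by hand. In each gene shown the pair of dKO libraries stands apart from the pair of sKO libraries, as the naming rule required.

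A few genes were near absence in 1 genotype and present in the other, taking under 1 FPKM in both libraries against at least 2 FPKM in both. Those present in dKO were Hmox1, Slc43a1, Arhgap10 and Ccl6. Hmox1, the inducible heme oxygenase, was at 0.692 and 0.529 FPKM in sKO and 3.09 and 3.09 FPKM in dKO (1.34 ± 0.083). Slc43a1, an amino acid transporter, was at 0.978 and 0.935 FPKM in sKO and 3.55 and 3.84 FPKM in dKO (1.26 ± 0.10). Arhgap10, a GTPase-activating protein, was at 0.838 and 0.833 FPKM in sKO and 2.23 and 2.29 FPKM in dKO (0.83 ± 0.12). The chemokine gene Ccl6 was at 0.540 and 0.958 FPKM in sKO and 2.17 and 2.19 FPKM in dKO (0.87 ± 0.13). Those present in sKO were the chemokine gene Ccl22, the chemokine receptor genes Cxcr3 and Ccr6, Mst1 and Olfr98. Ccl22 was at 2.78 and 2.77 FPKM in sKO and 0.269 and 0.504 FPKM in dKO (-1.45 ± 0.12). Cxcr3 was at 2.44 and 2.91 FPKM in sKO and 0.0615 and 0.192 FPKM in dKO (-1.70 ± 0.15). Ccr6 was at 3.11 and 3.40 FPKM in sKO and 0.848 and 0.696 FPKM in dKO (-1.26 ± 0.11). Mst1 was at 2.28 and 2.49 FPKM in sKO and 0.830 and 0.995 FPKM in dKO (-0.82 ± 0.095). The olfactory receptor gene Olfr98 was at 2.19 and 2.68 FPKM in sKO and 0.853 and 0.413 FPKM in dKO (-1.08 ± 0.22). All 9 genes were called (adjusted p 0.000884 to 0.0134, limma; for Olfr98, 0.0635 without sKO LZ2, 0.0685 without dKO LZ2). Each is under 1 FPKM in the lower group, so these are changes of low levels.

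Genes of antigen presentation were lower. Of 18 genes of MHC class II presentation, 13 fell and 0 rose, with a median of -0.29. H2-Oa, a chain of the inhibitor of peptide loading, was at 173 and 162 FPKM in sKO and 89.8 and 94.1 FPKM in dKO (-0.86 ± 0.048). Its partner H2-Ob was at 278 and 305 FPKM in sKO and 189.9 and 197 FPKM in dKO (-0.59 ± 0.051). H2-DMb1 and H2-DMb2, chains of the loading factor itself, both fell. H2-DMb1 was at 276 and 277 FPKM in sKO and 215 and 212 FPKM in dKO (-0.37 ± 0.036). H2-DMb2 was at 539 and 531 FPKM in sKO and 419 and 427 FPKM in dKO (-0.34 ± 0.036). Inhibitor and loading factor were thus both lower in each dKO library. The regulator genes Ciita, Rfx5 and March1 were lower as well. Ciita, the transactivator of class II genes, was at 108 and 114 FPKM in sKO and 79.4 and 82.5 FPKM in dKO (-0.45 ± 0.052). Rfx5, a factor that binds their promoters, was at 32.6 and 34.2 FPKM in sKO and 24.7 and 25 FPKM in dKO (-0.41 ± 0.048). March1, a ubiquitin ligase that removes class II from the surface, was at 59.1 and 58.9 FPKM in sKO and 45.6 and 43 FPKM in dKO (-0.41 ± 0.044). Ctss, the protease that trims the invariant chain, was at 166 and 179 FPKM in sKO and 135 and 139.6 FPKM in dKO (-0.33 ± 0.053). Adjusted p was 0.000772 to 0.00591 over these 8 genes (limma). The class II chain gene H2-Eb2 fell too, at 76.1 and 79.7 FPKM in sKO and 57.3 and 58.6 FPKM in dKO (-0.42 ± 0.043, adjusted p = 0.00165, limma). The chain genes H2-Ab1, H2-Eb1 and H2-Aa differed less. H2-Ab1 was at 2096 and 2040.4 FPKM in sKO and 1946 and 1935 FPKM in dKO (-0.09 ± 0.057). H2-Eb1 was at 1368 and 1367 FPKM in sKO and 1281 and 1250.1 FPKM in dKO (-0.11 ± 0.048), and neither was called (adjusted p = 0.267 and 0.126, limma). H2-Eb1 passed with scaling by the upper quartile (0.0396) or the median ratio (0.0374) of genes, with the upper quartile of the genes tested (0.0225), and without sKO DZ1 (0.0451) or sKO DZ2 (0.0462). H2-Aa was at 2338 and 2416 FPKM in sKO and 2092 and 2092 FPKM in dKO (-0.18 ± 0.050) (adjusted p = 0.034, limma), a call lost when any 1 of sKO LZ1, sKO LZ2, dKO LZ1, dKO LZ2, dKO DZ1 and dKO DZ2 was left out, with an adjusted p of up to 0.146. Cd74, the invariant chain and the most abundant of these transcripts by FPKM, was at 7845 and 7722 FPKM in sKO and 6600.4 and 6552 FPKM in dKO (-0.24 ± 0.059) (adjusted p = 0.0228, limma), a call lost when any 1 of sKO LZ1, sKO LZ2, dKO LZ1, dKO LZ2, dKO DZ1 and dKO DZ2 was left out, with an adjusted p of up to 0.129. With quantile normalization its difference was 0.11.

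The class I genes H2-T23 and H2-Q6, which are outside the classical set, and other abundant membrane protein genes were lower as well. H2-T23, which encodes Qa-1, a ligand of the CD94 and NKG2 receptors, was at 173 and 174 FPKM in sKO and 107 and 106 FPKM in dKO (-0.70 ± 0.059). H2-Q6, of the Qa-2 family, was at 144 and 134 FPKM in sKO and 94.3 and 87.7 FPKM in dKO (-0.61 ± 0.061). Genes of the H2-Q family are close copies of each other and may share reads, so the H2-Q6 value is uncertain. Shisa5, a membrane protein of the endoplasmic reticulum, was at 119.98 and 118 FPKM in sKO and 66 and 69.6 FPKM in dKO (-0.80 ± 0.038). Cd37, a tetraspanin of B cells, was at 587 and 552 FPKM in sKO and 405 and 416 FPKM in dKO (-0.47 ± 0.042). All 4 are abundant genes that fell in dKO (adjusted p 0.000572 to 0.00161, limma), and the libraries of the genotypes did not overlap. Cd37 was named after its values were seen.

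Transcripts of many antigen receptor signalling genes, of activators and of inhibitors, were lower. Of 26 genes of proximal signalling, 16 fell and 0 rose (median -0.20; 7 without dKO LZ1). The complement receptor gene Cr2 was at 83.3 and 102 FPKM in sKO and 52.3 and 54.2 FPKM in dKO (-0.78 ± 0.087). The adaptor gene Bank1 was at 87.4 and 91.3 FPKM in sKO and 66.6 and 65.7 FPKM in dKO (-0.43 ± 0.048). The kinase genes Syk and Lyn both fell. Syk was at 153 and 149.8 FPKM in sKO and 109 and 110.1 FPKM in dKO (-0.47 ± 0.037). Lyn was at 93.7 and 91.5 FPKM in sKO and 76.8 and 80.6 FPKM in dKO (-0.23 ± 0.039). The receptor chain gene Cd79a was at 808 and 781 FPKM in sKO and 662 and 662 FPKM in dKO (-0.26 ± 0.045). In each of these the dKO pair was the lower one (adjusted p 0.000979 to 0.00715, limma). Of 25 inhibitory receptors and phosphatases, 14 fell and 5 rose, with a median of -0.27. Fcrl1 and Fcrla, of the Fc receptor-like family, are described with this list without being taken as inhibitory receptors, and both fell. Fcrl1 was at 89.3 and 90.2 FPKM in sKO and 57.2 and 56.5 FPKM in dKO (-0.65 ± 0.037). Fcrla was at 137 and 139 FPKM in sKO and 85 and 89.9 FPKM in dKO (-0.66 ± 0.044). Siglecg and Cd22, sialic acid-binding inhibitors of the receptor, both fell. Siglecg was at 160.4 and 163 FPKM in sKO and 99.4 and 107 FPKM in dKO (-0.64 ± 0.047). Cd22 was at 286 and 290.4 FPKM in sKO and 213 and 224 FPKM in dKO (-0.40 ± 0.045). Pecam1, Btla, Cd72 and Fcgr2b, which carry inhibitory tyrosine motifs, changed by -0.71 to -0.27. The receptor genes named here were all lower, and the phosphatase genes Ptpn22 and Ptpn12 were higher. Ptpn22 rose by 1.31 ± 0.074. Ptpn12, another PEST phosphatase, was at 4.78 and 4.63 FPKM in sKO and 7.76 and 7.69 FPKM in dKO (0.61 ± 0.059). Adjusted p was 0.000772 to 0.00419 over these 10 genes (limma).

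**Figure D3:**
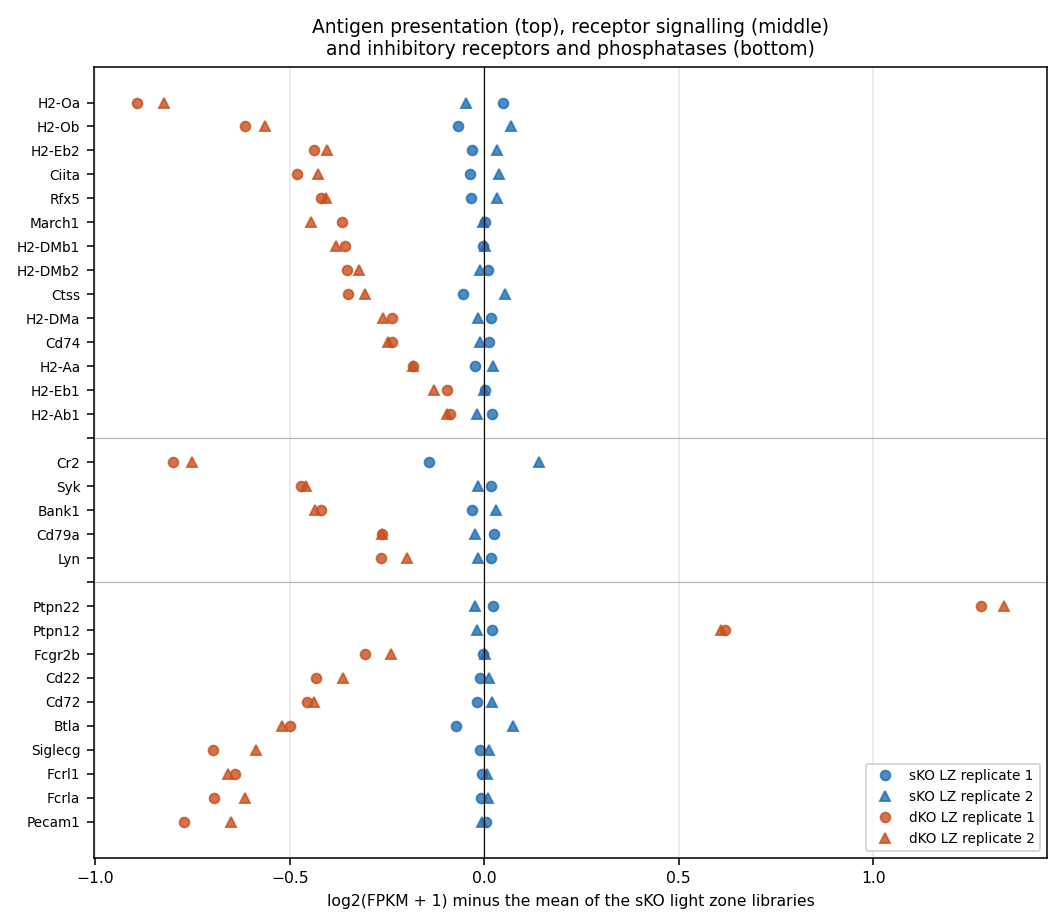
log2(FPKM + 1) of each light zone library minus the mean of the sKO light zone libraries, for genes of MHC class II presentation, receptor signalling, and inhibitory receptors and phosphatases (sKO in blue, dKO in orange, circles and triangles for replicates 1 and 2). Fcrl1 and Fcrla are drawn with the last group without being taken as inhibitory receptors. Most dKO points lie to the left of 0, from H2-Oa and Cr2 down to H2-Ab1, while those of Ptpn22 and Ptpn12 lie to the right.

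Receptors for T cell help and cytokines changed in both directions, with more falls than rises. Of 21 genes of T cell help and adhesion, 1 rose and 5 fell (3 without dKO LZ1, 3 without dKO LZ2). The one that rose, the adhesion gene Alcam, had the largest change of the list (1.32 ± 0.057, adjusted p = 0.0005, limma). Icosl, the ligand that engages ICOS on helper T cells, was at 60.6 and 62.1 FPKM in sKO and 39.8 and 42 FPKM in dKO (-0.58 ± 0.043). The integrin gene Itgal, a chain of LFA-1, was at 50.2 and 51.9 FPKM in sKO and 40.3 and 42.7 FPKM in dKO (-0.29 ± 0.044). Cd40, the receptor for CD40 ligand, was at 61.9 and 60.9 FPKM in sKO and 60.6 and 54.8 FPKM in dKO and was not called (adjusted p = 0.269, limma). Of the genes for the proteins used in the sort, Cd86 was at 90.9 and 106 FPKM in sKO and 77.4 and 78.8 FPKM in dKO. Cxcr4 was at 78.3 and 73.5 FPKM in sKO and 77.6 and 74.4 FPKM in dKO. Cd86 passed the threshold (adjusted p = 0.0238, limma; 0.0721 without sKO LZ2, 0.105 without dKO LZ1, 0.0841 without dKO LZ2) and Cxcr4 did not (0.98, limma). In the TNF receptor superfamily and its adaptors, 3 of 17 genes rose and 4 fell. Tnfrsf8 (CD30) was at 4.99 and 4.44 FPKM in sKO and 9.39 and 8.87 FPKM in dKO (0.83 ± 0.088) and Tnfrsf1b (TNFR2) at 3.63 and 4.42 FPKM in sKO and 7.61 and 8.39 FPKM in dKO (0.84 ± 0.11), both close to doubled. Tnfrsf18 (GITR) was at 2.37 and 1.81 FPKM in sKO and 0.861 and 0.561 FPKM in dKO (-0.85 ± 0.14). The adaptor gene Traf5 was at 36.4 and 34.9 FPKM in sKO and 28.3 and 26.6 FPKM in dKO (-0.36 ± 0.062). Tnfrsf13c, the BAFF receptor, was at 315 and 335 FPKM in sKO and 280.1 and 282 FPKM in dKO (-0.21 ± 0.049), with adjusted p = 0.0207 (limma; 0.0822 without sKO LZ2, 0.0992 without dKO LZ1, 0.0865 without dKO LZ2). Neither the BAFF receptor gene nor Cd40 was among the members that rose.

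Of 32 cytokine receptor and signalling genes, 2 rose and 11 fell (7 without sKO LZ2, 5 without dKO LZ1). Il4ra, the receptor for IL-4 and IL-13, was at 49.96 and 46.4 FPKM in sKO and 37.4 and 39.9 FPKM in dKO (-0.31 ± 0.051). The common gamma chain gene Il2rg was at 101 and 103 FPKM in sKO and 79.6 and 84.8 FPKM in dKO (-0.31 ± 0.046). Tgfbr2, the ligand-binding TGF-beta receptor, was at 34.9 and 37.3 FPKM in sKO and 28.5 and 26.7 FPKM in dKO (-0.38 ± 0.050). These 3 genes were lower in both dKO libraries. Socs3, a feedback inhibitor of cytokine signalling, was at 2.00 and 2.05 FPKM in sKO and 3.43 and 3.40 FPKM in dKO (0.54 ± 0.080) and rose (adjusted p 0.0032 to 0.00613 over the 4 genes, limma). Of 16 genes of Toll-like receptor signalling, 1 rose and 7 fell, with a median of -0.16. Tlr1 was at 43.9 and 51.1 FPKM in sKO and 28.2 and 29.7 FPKM in dKO (-0.69 ± 0.079). Unc93b1, the chaperone of endosomal Toll-like receptors, was at 193 and 179 FPKM in sKO and 135 and 139 FPKM in dKO (-0.44 ± 0.053). The downstream factors Irf5 and Irf7 both fell. Irf5 was at 105 and 94.7 FPKM in sKO and 73 and 70.9 FPKM in dKO (-0.46 ± 0.060). Irf7 was at 14.2 and 15.2 FPKM in sKO and 8.80 and 8.56 FPKM in dKO (-0.70 ± 0.065). Tlr1, Unc93b1, Irf5 and Irf7 were each lower in dKO (adjusted p 0.00133 to 0.00292, limma).

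Among migration receptors 9 of 21 genes fell (5 without dKO LZ1) and 2 rose. Gpr174, the lysophosphatidylserine receptor, was at 4.97 and 5.97 FPKM in sKO and 1.86 and 1.78 FPKM in dKO (-1.20 ± 0.11). The integrin chain gene Itgb7 was at 5.77 and 6.25 FPKM in sKO and 3.32 and 3.57 FPKM in dKO (-0.66 ± 0.094). S1pr2, the sphingosine phosphate receptor that holds cells in the germinal centre, moved the other way, at 118 and 109 FPKM in sKO and 139.7 and 143 FPKM in dKO (0.31 ± 0.048) (adjusted p 0.00119 to 0.00522, limma). In the memory B cell list of 25 genes, 2 rose and 9 fell, and Ccr6, Hhex and Cd38 were among those that fell. Hhex, a transcription factor of memory B cells, was at 4.27 and 4.87 FPKM in sKO and 1.46 and 1.78 FPKM in dKO (-1.09 ± 0.12). Cd38 was at 12.7 and 14.8 FPKM in sKO and 6.45 and 7.10 FPKM in dKO (-0.92 ± 0.084). Cd38 protein was gated against in the sort.

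Signalling feedback and transcription factor genes moved less uniformly. Of 19 genes of MAP kinase and RAS feedback, 2 rose and 8 fell (5 without sKO LZ1, 4 without dKO LZ1, 5 without dKO LZ2). The phosphatase gene Dusp4 was at 5.60 and 5.39 FPKM in sKO and 2.95 and 3.00 FPKM in dKO (-0.71 ± 0.072), in contrast to Dusp5, which rose. Rasgrp2, an exchange factor for RAP1, was at 29.5 and 26.9 FPKM in sKO and 18.5 and 17.9 FPKM in dKO (-0.60 ± 0.070). Rasal3, a RAS GTPase-activating protein, was at 44.2 and 41.9 FPKM in sKO and 30.1 and 28.6 FPKM in dKO (-0.54 ± 0.045). Dgka, a diacylglycerol kinase, was at 13.3 and 13.8 FPKM in sKO and 8.73 and 9.60 FPKM in dKO (-0.52 ± 0.068). Rgs14, which limits G protein signals, was at 22.4 and 23.2 FPKM in sKO and 16.5 and 14.7 FPKM in dKO (-0.52 ± 0.063), and 2 of 9 RGS genes fell. These 5 genes were lower in each dKO library (adjusted p 0.00107 to 0.00302, limma). Of 22 NF-kB genes 1 rose and 5 fell (3 without sKO LZ1, 2 without sKO LZ2, 1 without dKO LZ1, 3 without dKO LZ2, 3 without sKO DZ1, 3 without sKO DZ2), among them the inhibitor gene Nfkbie at 39.6 and 41.1 FPKM in sKO and 33.2 and 33.6 FPKM in dKO (-0.27 ± 0.040).

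Among immediate early genes, which respond within minutes to stimulation, Fos, Jun and Dusp1 were set apart by 1 library. Fos was at 212 and 49.9 FPKM in sKO and 67.6 and 76.1 FPKM in dKO, Jun at 34.9 and 8.83 FPKM in sKO and 13.2 and 13.9 FPKM in dKO, Dusp1 at 58.7 and 11.1 FPKM in sKO and 16.9 and 19.5 FPKM in dKO and Egr1 at 36 and 24.4 FPKM in sKO and 16.9 and 18.4 FPKM in dKO. The sKO replicate 1 library was the highest in each of them, and no call was made (adjusted p 0.0849 to 0.716, limma; Egr1 passed, at 0.043, with the libraries rescaled without small RNA genes, at 0.0353 without sKO DZ1 and at 0.0354 without sKO DZ2). The DZ library sKO replicate 1 was likewise the highest for Fos, at 219 FPKM against 66.0 to 99.8 FPKM in the other DZ libraries. Without sKO LZ replicate 1, the LZ differences were 0.51 for Fos, 0.57 for Jun and 0.66 for Dusp1, the opposite sign. Egr1 differed from these genes, as both sKO libraries lay above both dKO libraries, in LZ and in DZ. Of 14 AP-1, BATF and MAF genes, 4 rose (1 without sKO LZ2, 1 without dKO LZ1, 1 without dKO LZ2) and 0 fell. Batf, whose product pairs with JUN proteins, was at 36.2 and 35.3 FPKM in sKO and 42.6 and 45.3 FPKM in dKO (0.29 ± 0.054) with adjusted p = 0.00981 (limma; 0.0601 without dKO LZ2), and Mafg, a small MAF partner of BACH proteins, at 4.25 and 3.05 FPKM in sKO and 7.19 and 5.79 FPKM in dKO (0.69 ± 0.15) with adjusted p = 0.0156 (limma; 0.0549 without sKO LZ2, 0.0835 without dKO LZ1). Bach1, the paralog of Bach2, was at 1.90 and 2.02 FPKM in sKO and 2.98 and 2.58 FPKM in dKO (0.35 ± 0.097) with adjusted p = 0.036 (limma), a call lost when any 1 of sKO LZ1, sKO LZ2, dKO LZ1, dKO LZ2, dKO DZ1 and dKO DZ2 was left out, with an adjusted p of up to 0.165.

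In a list of 41 B cell transcription factors, 3 rose and 11 fell (7 without sKO LZ1, 5 without dKO LZ1, 7 without dKO LZ2, 6 without dKO DZ1, 6 without dKO DZ2). Tox was at 8.36 and 7.61 FPKM in sKO and 12.7 and 14.7 FPKM in dKO (0.71 ± 0.091) and rose together with its relative Tox2. Spib, an ETS factor of germinal centre B cells, was at 264 and 262 FPKM in sKO and 213 and 212 FPKM in dKO (-0.31 ± 0.040). Foxp1, a forkhead repressor, was at 23 and 22.4 FPKM in sKO and 17.4 and 17.9 FPKM in dKO (-0.34 ± 0.053). Klf13 was at 10.5 and 10.6 FPKM in sKO and 7.56 and 7.68 FPKM in dKO (-0.42 ± 0.063). Runx1 was at 8.43 and 7.89 FPKM in sKO and 6.14 and 5.76 FPKM in dKO (-0.40 ± 0.070). These 4 genes were lower in both dKO libraries (adjusted p 0.00297 to 0.00771 with Tox, limma). The master regulators were not called with all libraries and the deposited scale: Bcl6 was at 129.7 and 119.6 FPKM in sKO and 114 and 119 FPKM in dKO (adjusted p = 0.181, limma; 0.0341 with quantile normalization and 0.0442 with the upper quartile of the genes tested), Irf4 at 11 and 11.6 FPKM in sKO and 12.8 and 13 FPKM in dKO (0.296, limma) and Myc at 41.6 and 32.6 FPKM in sKO and 55.3 and 52.5 FPKM in dKO (0.174, limma; 0.0218 without sKO DZ1 and 0.0217 without sKO DZ2).

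Immune GTPase genes were lower. Of 8 GIMAP genes, a cluster of lymphocyte GTPases linked to survival, 6 fell and 0 rose, with a median of -0.49. Gimap3 was at 49 and 53.8 FPKM in sKO and 28.6 and 27.8 FPKM in dKO (-0.84 ± 0.060). Gimap8 was at 37.2 and 42.8 FPKM in sKO and 22.9 and 22.8 FPKM in dKO (-0.78 ± 0.081). Gimap6 was at 129 and 139 FPKM in sKO and 82.2 and 80.7 FPKM in dKO (-0.71 ± 0.052). Gimap7 was at 33.7 and 38.1 FPKM in sKO and 25.3 and 26 FPKM in dKO (-0.47 ± 0.063) (adjusted p 0.000887 to 0.0034 over the 4 genes, limma). Of 36 interferon-inducible genes 21 fell (13 without sKO LZ2) and 1 rose, with a median of -0.32. The guanylate-binding protein genes Gbp2, Gbp4 and Gbp9 all fell. Gbp2 was at 6.54 and 7.22 FPKM in sKO and 2.15 and 1.82 FPKM in dKO (-1.40 ± 0.11). Gbp4 was at 9.15 and 9.55 FPKM in sKO and 5.69 and 5.34 FPKM in dKO (-0.67 ± 0.067). Gbp9 was at 16.8 and 21.3 FPKM in sKO and 10.2 and 9.48 FPKM in dKO (-0.88 ± 0.12). The immunity-related GTPase genes Igtp and Ifi47 both fell. Igtp was at 6.95 and 6.99 FPKM in sKO and 4.32 and 4.23 FPKM in dKO (-0.59 ± 0.076). Ifi47 was at 23.4 and 22.8 FPKM in sKO and 13.7 and 13.8 FPKM in dKO (-0.71 ± 0.067). Mndal and Ifi203, of the HIN-200 family, both fell. Mndal was at 13.1 and 15.9 FPKM in sKO and 6.59 and 6.11 FPKM in dKO (-1.07 ± 0.096). Ifi203 was at 6.57 and 7.36 FPKM in sKO and 2.46 and 3.28 FPKM in dKO (-1.05 ± 0.12). Trim30a, a ubiquitin ligase, was at 19.7 and 22.3 FPKM in sKO and 13.5 and 13 FPKM in dKO (-0.63 ± 0.071). In all 8 genes both dKO libraries were below both sKO libraries (adjusted p 0.000997 to 0.00313, limma). GBP and HIN-200 genes have close copies that may share reads. The exception was Bst2 (tetherin), at 11.3 and 13.6 FPKM in sKO and 16.6 and 14.6 FPKM in dKO (0.31 ± 0.094) with adjusted p = 0.0497 (limma), a call lost when any 1 of sKO LZ1, dKO LZ1, dKO LZ2, sKO DZ1, sKO DZ2, dKO DZ1 and dKO DZ2 was left out, with an adjusted p of up to 0.218, and also by each other scaling of whole libraries except the one without small RNA genes.

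Promoters of these genes were read for a short motif of interferon response elements on either strand, which is GAAA, then 2 bases of any kind, then GAAA. Promoters are the 250 bases before each start in the RefSeq annotation (GRCm38.p6), a newer build than the one named for the expression table, and genes were matched by name. Of 10610 genes tested 7472 matched. The motif was present in 3.27% of these promoters (244 genes), in 3.10% of genes called higher (44 of 1418), in 5.83% of genes called lower (57 of 978) and in 11.1% of those lower by at least 0.5 (27 of 244). Among genes lower by at least 1 the share was 28.6% (6 of 21), and it was 3.46% over all 27025 genes of the promoter table. Genes with several starts have more sequence in which to match. The motif choice followed earlier results of these data, and the shares are descriptions with no test. The following 100-base stretches, 5′ to 3′ on the gene's strand with the match in capitals, are shown because they belong to genes described above, and were chosen after their values and matches were seen.
Gbp2, chr3:142620559-142620658, plus strand: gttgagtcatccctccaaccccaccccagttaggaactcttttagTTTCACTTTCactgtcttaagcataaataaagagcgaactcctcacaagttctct
Igtp, chr11:58199456-58199555, plus strand: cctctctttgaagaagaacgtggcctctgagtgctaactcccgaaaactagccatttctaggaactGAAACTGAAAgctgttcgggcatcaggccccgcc
Ifi203, chr1:173942493-173942592, minus strand: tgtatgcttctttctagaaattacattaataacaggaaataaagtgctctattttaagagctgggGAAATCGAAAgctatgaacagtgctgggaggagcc
Mndal, chr1:173880188-173880287, minus strand: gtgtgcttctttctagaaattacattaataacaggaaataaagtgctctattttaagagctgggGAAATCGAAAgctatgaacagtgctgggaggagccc
Trim30a, chr7:104465194-104465293, minus strand: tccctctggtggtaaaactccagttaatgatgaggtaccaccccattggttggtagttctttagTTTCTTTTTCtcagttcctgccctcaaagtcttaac
H2-T23, chr17:36032771-36032870, minus strand: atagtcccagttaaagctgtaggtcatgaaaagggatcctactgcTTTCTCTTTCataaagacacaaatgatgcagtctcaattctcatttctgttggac

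In Gbp2, Trim30a and H2-T23 the capitals are the reverse complement of the motif. Those of Gbp2, Igtp, Ifi203, Mndal and Trim30a begin 34 to 59 bases before the start, and that of H2-T23 begins 124 bases before it. The Ifi203 and Mndal stretches are nearly the same sequence. The changes of these 6 genes ran from -1.40 to -0.59. Ifi47 and Irf7, which also fell, hold no match in this window, which says only that these letters are not there. A match is a description of the sequence and not evidence of binding.

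Further motifs gave smaller contrasts. CACGTG, the E-box bound by MYC and MAX among others, was in 10.4% of the promoters of genes tested, in 12.8% of genes called higher (182 of 1418) and in 8.90% of genes called lower (87 of 978). Among genes that changed by at least 0.5 it was in 13.7% of the higher (38 of 277) and 6.15% of the lower ones (15 of 244). Over all 27025 genes of the promoter table the share was 6.86%. TGANTCA, the core of AP-1 sites and part of MAF recognition elements bound by BACH2, was in 4.95% of promoters of genes tested, in 4.02% of genes called higher (57 of 1418) and in 6.75% of genes called lower (66 of 978), with 5.42% of those higher (15 of 277) and 7.79% of those lower by at least 0.5 (19 of 244), 3.70% of those higher (1 of 27) and 14.3% of those lower by at least 1 (3 of 21), and 7.82% of all 27025 genes of the promoter table. The letters TGATGNAA were in 2.34% of promoters of genes tested, 2.47% of genes called higher and 2.25% of genes called lower. Mxd4 (-1.15) and Abca1 (-0.95), which fell, also hold CACGTG in this window, and St3gal6, Dusp5 and Pde2a, which rose, do not. The E-box matches of Mgll, Cdk6 and Slc43a1 are shown, with the match in capitals, because these genes rose by 0.98 to 1.97.
Mgll, chr6:88724312-88724411, plus strand: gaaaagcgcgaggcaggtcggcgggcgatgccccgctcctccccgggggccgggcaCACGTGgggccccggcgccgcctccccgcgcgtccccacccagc
Cdk6, chr5:3343643-3343742, plus strand: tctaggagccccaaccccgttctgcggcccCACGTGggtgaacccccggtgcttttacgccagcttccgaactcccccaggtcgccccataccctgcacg
Slc43a1, chr2:84840212-84840311, plus strand: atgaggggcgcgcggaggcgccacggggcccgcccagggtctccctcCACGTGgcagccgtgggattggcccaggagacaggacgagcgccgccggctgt

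Glycan genes changed in both directions, with a share of rises close to that of all genes tested. Actin and lysosome genes fell more often than they rose. Of 46 sialyltransferase and glycan genes, 10 rose (6 without sKO LZ2, 4 without dKO LZ1, 5 without dKO LZ2) and 13 fell (7 without dKO LZ1). With all libraries 21.7% of this list rose, against 18.4% of all genes tested, and 28.3% fell, against 12.7%. St8sia4, which builds polysialic acid, was at 17.6 and 18.7 FPKM in sKO and 10.6 and 10.7 FPKM in dKO (-0.72 ± 0.053). Gcnt1, which branches O-glycans, was at 18.8 and 18.6 FPKM in sKO and 13.1 and 12.4 FPKM in dKO (-0.52 ± 0.053). B3gnt5, of lacto-series glycolipids, was at 10.9 and 12.8 FPKM in sKO and 5.72 and 5.57 FPKM in dKO (-0.95 ± 0.090). St3gal6, which caps glycans with an alpha2,3-linked sialic acid, was at 9.72 and 9.81 FPKM in sKO and 34.8 and 34.1 FPKM in dKO (1.72 ± 0.048). Cmah, which makes the Neu5Gc form of sialic acid, was at 16.6 and 19.7 FPKM in sKO and 24.7 and 24.8 FPKM in dKO (0.43 ± 0.079). St3gal6 and Cmah were thus higher and the other 3 enzymes lower in both dKO libraries (adjusted p 0.000117 to 0.00904, limma). Of 61 genes of actin and small GTPase regulation, 4 rose and 24 fell (13 without dKO LZ1). Capg, which caps filament ends, was at 12.7 and 10.9 FPKM in sKO and 4.33 and 3.28 FPKM in dKO (-1.42 ± 0.18). Evl, an actin polymerase of the ENA/VASP family, was at 60.9 and 60.2 FPKM in sKO and 40.1 and 39.2 FPKM in dKO (-0.60 ± 0.043). Hmha1, another GTPase-activating protein, was at 158 and 145 FPKM in sKO and 107 and 106 FPKM in dKO (-0.50 ± 0.047). Coro2b, a coronin, was at 3.93 and 4.03 FPKM in sKO and 8.55 and 8.91 FPKM in dKO (0.97 ± 0.081). Myof, a ferlin of membrane repair, was at 1.19 and 1.07 FPKM in sKO and 4.89 and 4.03 FPKM in dKO (1.36 ± 0.098). The first 3 were lower and the last 2 higher in both dKO libraries (adjusted p 0.000887 to 0.00271, limma). Of 45 lysosome and autophagy genes, 3 rose (1 without sKO LZ1, 1 without dKO LZ2) and 14 fell (8 without sKO LZ2, 6 without dKO LZ1, 8 without dKO LZ2). Map1lc3a, an LC3 gene, was at 3.51 and 3.13 FPKM in sKO and 1.85 and 1.71 FPKM in dKO (-0.63 ± 0.084).

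Genes of ribosome production were higher. Of 52 nucleolar genes, 47 rose and 0 fell, with a median of 0.51. Mrto4, an assembly factor of the large subunit, was at 41.3 and 43.6 FPKM in sKO and 73.8 and 70.3 FPKM in dKO (0.75 ± 0.049). Mybbp1a, a nucleolar coregulator, was at 71.1 and 72 FPKM in sKO and 107 and 108 FPKM in dKO (0.58 ± 0.032). Nhp2, a core protein of box H/ACA particles, was at 69.8 and 66.9 FPKM in sKO and 112 and 105 FPKM in dKO (0.66 ± 0.056). Each lay higher in both dKO libraries, as did Pa2g4, a growth-regulated factor bound to ribosomes, at 114 and 119 FPKM in sKO and 186 and 183 FPKM in dKO (0.66 ± 0.045). Of 20 aminoacyl-tRNA synthetase genes, 16 rose and 1 fell, with a median of 0.38. Eprs, Nars, Rars and Iars rose by 0.37 to 0.51. The lower one was Qars, at 63.4 and 60.8 FPKM in sKO and 54.6 and 56.3 FPKM in dKO (-0.16 ± 0.039, adjusted p = 0.024, limma), a call lost when any 1 of sKO LZ1, dKO LZ1, dKO LZ2, dKO DZ1 and dKO DZ2 was left out, with an adjusted p of up to 0.129. Of 39 translation initiation genes, 21 rose and 2 fell. The helicase gene Eif4a1 was at 389 and 402 FPKM in sKO and 584 and 567 FPKM in dKO (0.54 ± 0.041). Eif5a, which carries hypusine, was at 567 and 551 FPKM in sKO and 777 and 748 FPKM in dKO (0.45 ± 0.043). The scaffold gene Eif4g1 was at 81.7 and 79.6 FPKM in sKO and 105 and 109 FPKM in dKO (0.40 ± 0.042). The inhibitor of this helicase, Pdcd4, was at 18.8 and 20.2 FPKM in sKO and 7.18 and 7.08 FPKM in dKO (-1.33 ± 0.097). Helicase and inhibitor thus moved in opposite directions (adjusted p 0.000772 to 0.00181 over the 12 genes other than Qars, limma).

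The ribosomal proteins themselves were counted by compartment, and the counts were not tested against each other. Of 58 cytosolic ribosomal protein genes, 2 rose and 2 fell, with a median of -0.05, and 8 fell without sKO DZ1 or without sKO DZ2. Many of them have near-identical pseudogenes that can share reads. Of 71 mitochondrial ribosomal protein genes, 27 rose (13 without dKO LZ1, 17 without dKO LZ2) and 0 fell, with a median of 0.23. Mrpl13 was at 52.4 and 53.5 FPKM in sKO and 75.5 and 74.7 FPKM in dKO (0.50 ± 0.036). Mrpl42 was at 78.1 and 78.4 FPKM in sKO and 112 and 116 FPKM in dKO (0.54 ± 0.049). Mrps18b was at 36.1 and 38.1 FPKM in sKO and 53.2 and 51.4 FPKM in dKO (0.49 ± 0.064) (adjusted p 0.000887 to 0.00313, limma).

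Chaperones and the proteasome were higher. Of 22 chaperonin and heat shock genes, 21 rose and 0 fell, with a median of 0.44. The cytosolic chaperonin genes Cct3 and Cct6a both rose. Cct3 was at 129.7 and 127 FPKM in sKO and 192 and 188 FPKM in dKO (0.56 ± 0.038). Cct6a was at 117 and 122 FPKM in sKO and 176 and 174 FPKM in dKO (0.54 ± 0.042). The mitochondrial chaperones Hspd1 and Hspa9 both rose. Hspd1 was at 129.7 and 133 FPKM in sKO and 219.7 and 204 FPKM in dKO (0.68 ± 0.066). Hspa9 was at 78.8 and 78.5 FPKM in sKO and 127 and 123 FPKM in dKO (0.66 ± 0.054). Ahsa1, an activator of HSP90, was at 104 and 99.997 FPKM in sKO and 145 and 144 FPKM in dKO (0.50 ± 0.040). The 5 chaperone genes were higher in both dKO libraries (adjusted p 0.000887 to 0.00141, limma). Of 38 proteasome genes, 29 rose (14 without dKO LZ1, 19 without dKO LZ2) and 0 fell. The core subunit genes Psma5 and Psma6 and the base subunit gene Psmd2 rose by 0.34 to 0.43. Of 45 genes of the endoplasmic reticulum, 21 rose (13 without sKO LZ2, 11 without dKO LZ1) and 2 fell. The summed plasma cell markers were higher in dKO too, as given above, and their part in this count was not tested. Hsp90b1, a chaperone of the lumen, was at 129.97 and 132 FPKM in sKO and 185 and 189.6 FPKM in dKO (0.51 ± 0.033). Canx, which folds glycoproteins, was at 89.8 and 87.6 FPKM in sKO and 118 and 114 FPKM in dKO (0.38 ± 0.038). The stress-induced Sdf2l1 was at 42.6 and 44.9 FPKM in sKO and 65.7 and 63.8 FPKM in dKO (0.56 ± 0.089) (adjusted p 0.000884 to 0.00578 over these 6 genes, limma).

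Metabolic enzymes that supply nucleotides were higher. Of 30 purine and pyrimidine genes, 23 rose and 1 fell, with a median of 0.44. On the purine side, Gart was at 38.1 and 37.1 FPKM in sKO and 59.7 and 57.9 FPKM in dKO (0.63 ± 0.040). Paics was at 89.6 and 86.6 FPKM in sKO and 116 and 117 FPKM in dKO (0.40 ± 0.037). Impdh1, which commits IMP to guanine nucleotides, was at 4.18 and 4.24 FPKM in sKO and 8.00 and 8.79 FPKM in dKO (0.85 ± 0.079). On the pyrimidine side, Cad, which carries out the opening steps, was at 14.4 and 14.4 FPKM in sKO and 21.3 and 21.1 FPKM in dKO (0.53 ± 0.052). Ctps, CTP synthase, was at 21.8 and 22.4 FPKM in sKO and 37.1 and 33.2 FPKM in dKO (0.64 ± 0.064). Both branches were higher in each dKO library (adjusted p 0.000884 to 0.00152, limma). Of 16 serine and one-carbon genes, 12 rose and 1 fell, with a median of 0.49. Phgdh and Psat1, of serine synthesis, both rose. Phgdh was at 91.3 and 84.5 FPKM in sKO and 131 and 133 FPKM in dKO (0.58 ± 0.073). Psat1 was at 65.5 and 66.8 FPKM in sKO and 95.4 and 98.5 FPKM in dKO (0.54 ± 0.047). The hydroxymethyltransferase genes Shmt1 (cytosolic) and Shmt2 (mitochondrial) both rose. Shmt1 was at 18.6 and 16.4 FPKM in sKO and 32.5 and 31 FPKM in dKO (0.82 ± 0.073). Shmt2 was at 75.3 and 66.7 FPKM in sKO and 117 and 118 FPKM in dKO (0.72 ± 0.063). Mthfd1 and Mthfd2, which process folate carriers in the same compartments, rose by 0.63 ± 0.060 and 0.56 ± 0.061. The cytosolic and mitochondrial arms were each higher in dKO (adjusted p 0.0011 to 0.00274, limma).

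Carbon metabolism and uptake genes showed the same direction in many members. Of 21 glycolytic genes 11 rose and 0 fell. Tpi1, triosephosphate isomerase, was at 117 and 109 FPKM in sKO and 169.8 and 165 FPKM in dKO (0.56 ± 0.055). Ldha, lactate dehydrogenase, was at 269 and 263 FPKM in sKO and 399 and 395 FPKM in dKO (0.58 ± 0.065). The lactate transporter gene Slc16a1 was at 9.83 and 10.5 FPKM in sKO and 15 and 16.2 FPKM in dKO (0.57 ± 0.079). Mdh1, cytosolic malate dehydrogenase, was at 126 and 129.8 FPKM in sKO and 205 and 205 FPKM in dKO (0.67 ± 0.045). Of 31 TCA cycle genes 11 rose (7 without dKO LZ1, 7 without dKO LZ2), and of 52 respiratory chain genes 19 rose (11 without sKO LZ2, 7 without dKO LZ1, 10 without dKO LZ2). Cycs, cytochrome c, was at 33 and 35.8 FPKM in sKO and 47.8 and 47.8 FPKM in dKO (0.46 ± 0.054). Atp5o, of the ATP synthase, was at 172 and 177 FPKM in sKO and 222 and 219.7 FPKM in dKO (0.34 ± 0.034). Adjusted p was 0.000887 to 0.0035 for these genes (limma). Of 33 sterol and fatty acid synthesis genes, 22 rose and 1 fell, with a median of 0.37. Fdps, farnesyl diphosphate synthase, was at 72.2 and 77.2 FPKM in sKO and 121 and 111 FPKM in dKO (0.63 ± 0.065). Scd2, a stearoyl-CoA desaturase, was at 36.1 and 37.5 FPKM in sKO and 52.8 and 52.8 FPKM in dKO (0.51 ± 0.046). These synthesis genes were higher, while the sterol efflux gene Abca1 was lower (adjusted p 0.0011 to 0.00165, limma). Of 25 amino acid transport and ATF4 response genes, 11 rose and 1 fell. Slc1a4, a neutral amino acid transporter, was at 0.868 and 1.17 FPKM in sKO and 2.51 and 3.05 FPKM in dKO (0.90 ± 0.12). Ddit4, an inhibitor of mTORC1 and the lower one, was at 14.6 and 16.2 FPKM in sKO and 8.40 and 8.21 FPKM in dKO (-0.82 ± 0.10). Slc29a1, an equilibrative nucleoside transporter, was at 19.7 and 18.5 FPKM in sKO and 34.9 and 34.8 FPKM in dKO (0.84 ± 0.048), opposite to the concentrative transporter Slc28a2. Adjusted p was 0.000772 to 0.00287 for these 3 (limma).

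Of 25 heme, iron and antioxidant genes, 15 rose (8 without sKO LZ2, 7 without dKO LZ1, 7 without dKO LZ2) and 0 fell, with a median of 0.21. Gclc and Gclm, the subunits of glutamate-cysteine ligase, which limits glutathione synthesis, both rose. Gclc was at 11.6 and 9.61 FPKM in sKO and 16.9 and 18.8 FPKM in dKO (0.70 ± 0.092). Gclm was at 7.35 and 7.82 FPKM in sKO and 11.1 and 12.5 FPKM in dKO (0.57 ± 0.075). Tfrc, the transferrin receptor, was at 32.8 and 34 FPKM in sKO and 48.4 and 46.4 FPKM in dKO (0.49 ± 0.054). Slc39a14, a metal importer, was at 2.22 and 1.95 FPKM in sKO and 4.38 and 4.45 FPKM in dKO (0.81 ± 0.096). These 4 genes were higher in each dKO library (adjusted p 0.00194 to 0.00305, limma). Gstt1, a glutathione transferase, was at 11.1 and 10.2 FPKM in sKO and 5.60 and 3.89 FPKM in dKO (-1.04 ± 0.14) and fell. It belongs neither to this list nor to the one that follows. In a further list of glutathione, lipid and monoglyceride enzymes 4 of 24 genes rose and 2 fell, with a median of 0.03 that changed sign among the other settings. The share that rose was 16.7%, against 18.4% of all genes.

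Cell cycle genes were higher and genes of quiescence lower. Of 42 G1/S and replication genes, 38 rose and 0 fell, with a median of 0.43. Pole2, of polymerase epsilon, was at 20.5 and 19.98 FPKM in sKO and 33.6 and 30.6 FPKM in dKO (0.64 ± 0.053). Dnmt1, the maintenance DNA methyltransferase, was at 106 and 103 FPKM in sKO and 145 and 151 FPKM in dKO (0.49 ± 0.040). Rfc4, of the clamp loader, was at 52.6 and 49.9 FPKM in sKO and 76.7 and 74.7 FPKM in dKO (0.55 ± 0.040). Of 28 genes of G1 cyclins, kinases and their inhibitors, 15 rose and 2 fell. Cdk4 was at 149 and 144 FPKM in sKO and 198 and 203 FPKM in dKO (0.45 ± 0.047). Cdk6 was at 3.02 and 3.21 FPKM in sKO and 6.75 and 7.51 FPKM in dKO (0.98 ± 0.099). Ccne1, cyclin E1, was at 17.6 and 18.4 FPKM in sKO and 23.9 and 24.7 FPKM in dKO (0.41 ± 0.045). The inhibitor gene Cdkn1b (p27) was at 9.67 and 8.66 FPKM in sKO and 4.36 and 4.30 FPKM in dKO (-0.93 ± 0.10). Kinases and the inhibitor thus moved in opposite directions (adjusted p 0.000887 to 0.00191 over these 7 genes, limma). Of 42 G2/M genes 17 rose and 0 fell. The count that rose hung on single libraries (32 without sKO LZ1, 8 without sKO LZ2, 5 without dKO LZ1, 6 without dKO LZ2, 9 without dKO DZ1, 9 without dKO DZ2). Top2a, topoisomerase II alpha, was at 157 and 142 FPKM in sKO and 198 and 199.9 FPKM in dKO (0.41 ± 0.054). Bub1, a checkpoint kinase, was at 23.4 and 21.7 FPKM in sKO and 30.4 and 30.2 FPKM in dKO (0.41 ± 0.049). Of 23 quiescence genes 0 rose and 10 fell, with a median of -0.34. Ccng2, a cyclin of arrested cells, was at 34 and 33 FPKM in sKO and 23.4 and 23.4 FPKM in dKO (-0.50 ± 0.039). Btg1 was at 102 and 86.9 FPKM in sKO and 52.1 and 51.4 FPKM in dKO (-0.85 ± 0.080). Mxd4, an antagonist of MYC, was at 38.2 and 42.8 FPKM in sKO and 17.6 and 17.7 FPKM in dKO (-1.15 ± 0.088) (adjusted p 0.000918 to 0.00302 for these 5 genes, limma).

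Death, damage and mutation genes were mixed. Among pro-apoptotic BCL2 family genes, Bcl2l11 (BIM) was at 8.05 and 7.15 FPKM in sKO and 16.1 and 16 FPKM in dKO (0.99 ± 0.064). Bmf was at 11.8 and 12.9 FPKM in sKO and 6.16 and 6.10 FPKM in dKO (-0.90 ± 0.062), so these rose and fell respectively. Of 7 pro-survival genes 1 fell, Mcl1 at 189.9 and 193 FPKM in sKO and 151 and 149 FPKM in dKO (-0.35 ± 0.040), and 5 fell when sKO LZ replicate 1 was left out. Of 31 p53 and damage genes, 8 rose and 1 fell. The checkpoint kinase gene Chek1 was at 14.7 and 14.6 FPKM in sKO and 20.5 and 21.1 FPKM in dKO (0.48 ± 0.056). Brca1, of homologous repair, was at 12.7 and 12.6 FPKM in sKO and 17.5 and 18 FPKM in dKO (0.46 ± 0.056). Gdf15, a stress cytokine, was at 0.216 and 0.310 FPKM in sKO and 1.28 and 2.56 FPKM in dKO (1.17 ± 0.22). All 3 were higher in both dKO libraries. Of 23 genes of antibody gene mutation and its repair, 9 rose (5 without dKO LZ1) and 2 fell. Ung, which removes uracil from DNA, was at 20.8 and 19.5 FPKM in sKO and 31.4 and 30.2 FPKM in dKO (0.59 ± 0.062). The exonuclease gene Exo1 was at 7.13 and 6.73 FPKM in sKO and 11 and 11.6 FPKM in dKO (0.63 ± 0.057). Neil1, a base excision glycosylase, was at 217 and 182 FPKM in sKO and 143 and 140.2 FPKM in dKO (-0.49 ± 0.079) and fell. The glycosylase genes Ung and Neil1 thus moved in opposite directions (adjusted p 0.000884 to 0.00991 over the 9 genes named here, limma).

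Of 25 cytokine and secreted factor genes, 6 rose and 7 fell (4 without dKO LZ2). Il10 was at 1.29 and 0.577 FPKM in sKO and 7.06 and 5.72 FPKM in dKO (1.95 ± 0.20). Mif, a cytokine with wide expression, was at 303 and 279.6 FPKM in sKO and 468 and 452 FPKM in dKO (0.66 ± 0.091). The galectin gene Lgals1 was at 13.1 and 11 FPKM in sKO and 23.5 and 22.5 FPKM in dKO (0.89 ± 0.10). Il16 was at 46.3 and 45.8 FPKM in sKO and 34.8 and 34 FPKM in dKO (-0.41 ± 0.037). Il4i1, a secreted amino acid oxidase, was at 94 and 103 FPKM in sKO and 56.1 and 61.1 FPKM in dKO (-0.74 ± 0.091). Il10, Mif and Lgals1 were higher and Il16 and Il4i1 lower in dKO (adjusted p 0.00124 to 0.00367, limma). Serpinb1a, an inhibitor of neutrophil-type proteases, was at 4.98 and 7.04 FPKM in sKO and 1.13 and 1.06 FPKM in dKO (-1.73 ± 0.19). Serpinb9, an inhibitor of granzyme B, was at 0.565 and 0.711 FPKM in sKO and 1.65 and 1.66 FPKM in dKO (0.70 ± 0.094). The protease inhibitors Serpinb1a and Serpinb9 thus moved in opposite directions, as did Slpi and Serpinb1a.

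The same contrast in DZ cells, from 4 other libraries, called 1258 genes (11.9%). Of the 713 genes that changed by at least 0.5 in LZ, 682 (95.7%) had the same sign in DZ and 406 were called there in the same direction. Over all genes tested 76.5% had the same sign. The labels do not say whether LZ and DZ libraries came from the same pools of mice. As sKO replicate 1 was the highest library for Fos in LZ and in DZ, the agreement between zones may not be independent. The median size of change of the 713 genes was 0.61 in LZ, and in DZ it was 0.39 in the same direction. The LZ size is of genes chosen for it, so the pair of medians shows no loss of effect. The test of the difference between zones called 3 of 10610 genes (0.0283%), which are microRNA genes, and 1232 genes at an unadjusted p under 0.05. All other genes named here therefore missed the threshold for a difference between zones, and for them a call in LZ alone does not show an effect particular to it.

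Among genes with the smallest p of that test, picked after their values were seen, Asns, asparagine synthetase, was at 7.88 and 8.96 FPKM in sKO and 16.9 and 16.6 FPKM in dKO in LZ and at 5.56 and 5.56 FPKM in sKO DZ and 5.61 and 5.96 FPKM in dKO DZ. Its difference of changes was 0.87 ± 0.099 (adjusted p = 0.142, limma). Batf differed by 0.70 ± 0.077, being lower in dKO DZ cells (-0.41 ± 0.054) and higher in dKO LZ cells, with adjusted p = 0.142 (limma). Ccr6 was at 0 and 0.118 FPKM in sKO DZ and 0 and 0.0639 FPKM in dKO DZ, close to level in DZ, and its difference was -1.23 ± 0.16 (adjusted p = 0.177, limma). Ccl22 was at 0.109 and 0 FPKM in sKO DZ and 0 and 0 FPKM in dKO DZ and differed by -1.37 ± 0.17 (adjusted p = 0.173, limma). Hhex was at 0.261 and 0.128 FPKM in sKO DZ and 0.127 and 0.207 FPKM in dKO DZ and differed by -1.06 ± 0.16 (adjusted p = 0.285, limma). Ccr6, Ccl22 and Hhex passed the filter through LZ libraries and are near 0 in DZ, where no fall could be seen, so their differences between zones are set by that floor. Cd36, a scavenger receptor for lipids, was at 16.1 and 17 FPKM in sKO and 24.8 and 24.8 FPKM in dKO in LZ and at 6.90 and 6.72 FPKM in sKO DZ and 16 and 16.2 FPKM in dKO DZ, with a difference of -0.57 ± 0.067 (adjusted p = 0.142, limma). At 2 libraries in a group none of these differences passed the threshold.

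**Figure D4:**
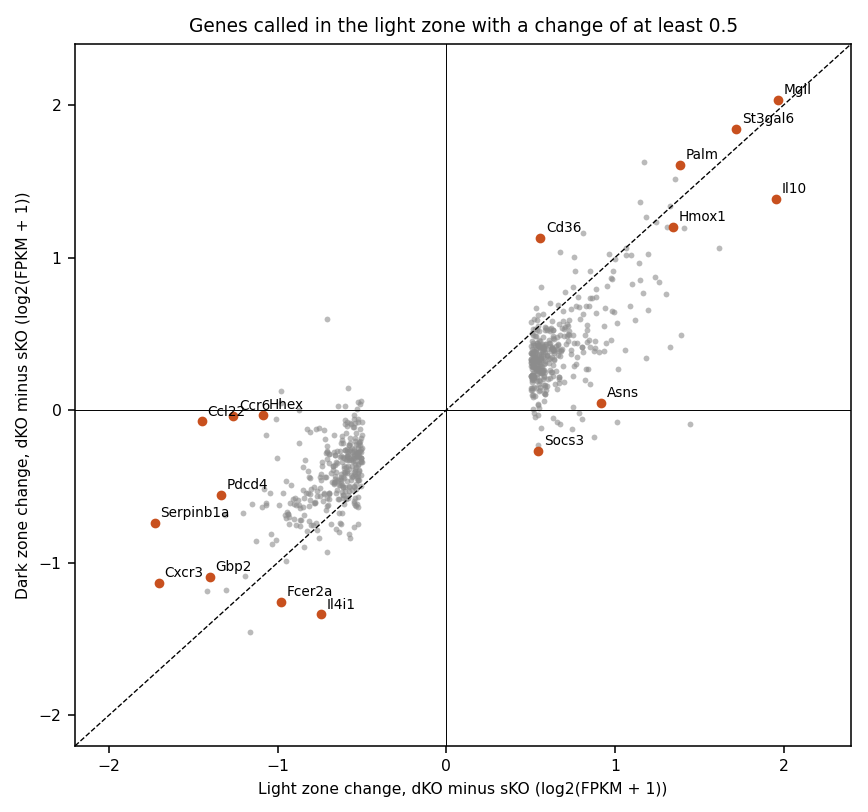
Change in DZ (vertical) against change in LZ (horizontal), dKO minus sKO on the log2(FPKM + 1) scale, for 704 genes called in LZ with a change of at least 0.5, small RNA genes left out. The dashed line marks equal change. Most points share their sign in the zones, while Ccr6, Ccl22, Hhex and Asns lie near 0 in DZ and Cd36 lies above the line.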

How the data were processed

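RNA of sorted light and dark zone germinal centre B cells was measured in 8 libraries. The authors deposited 1 table of FPKM values per gene symbol, per the file headers. The submitters' processing notes list TopHat2 2.0.8, Cufflinks 2.1.1 and mm9 without saying what each was used for. Libraries were made with a NEBNext Ultra RNA kit, per the labels' protocols, which do not state strand, so overlapping genes may share reads. Absolute depth is unknown from FPKM, and an exact 0 can be a failed estimate. The last row, which holds library codes, was dropped, and columns with no matching sample numbered 0.

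Here, log2(FPKM + 1) was fitted with limma 3.58.1 (R 4.3.3), using 4 group means over all 8 libraries, empirical Bayes variances that follow mean level (4 residual and 2.46 prior degrees of freedom) and 2-sided tests, adjusted by Benjamini-Hochberg within each contrast over the 10610 genes that reached 1 FPKM in 2 or more libraries. DZ libraries thus share in the estimate of the spread. Genotypes were contrasted within LZ and within DZ, and the difference of these contrasts was tested. Members of 58 gene lists (1652 genes, of which 1625 matched by symbol, 20 by RefSeq synonym and 7 not) were counted without a test. The comparison, the lists and the rules were chosen with earlier results of these data known. By rule, named genes are the 30 largest changes in each direction (called, at least 5 FPKM in the higher group, no overlap, no small RNA, unnamed gene model or antigen receptor segment), the 12 largest with at least 100 FPKM, genes under 1 FPKM in both libraries of 1 genotype and at least 2 FPKM in both of the other, and 4 members per list, those of lowest p. Genes given in any case were Mgll, Hmox1, Il10, Hhex, Ccr6, Bcl2l11, Myc, Irf4, Bcl6, Cxcr4, Cd86, Prdm1 and Bach2. Other members named in the list accounts were chosen after their values were seen, and some genes of the rule are left out. Alternatives were other pseudocounts, filters, scalings and variance priors, LZ libraries only, a replicate block and leaving out each library. Data were also simulated for 10610 genes with independent normal noise, and 50 genes were changed at each of 4 sizes. Of genes changed by 0.3, 0.5, 1 and 2, 34%, 60%, 98% and 98% were recovered, with 6 of 151 calls false. Far fewer genes were changed there than were called in the data. These shares therefore do not carry over to the LZ contrast.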

Additional observations from a re-analysis of the deposited data

Results flagged for a closer look

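The test of the difference between zones singled out 3 microRNA genes, which are left out of the naming rule. Mir194-1 was listed at 0 in all 4 LZ libraries and in both dKO DZ libraries, and at 261 and 299.7 FPKM in sKO DZ (LZ change minus DZ change 8.13 ± 0.12, adjusted p = 1.75e-06, limma). Mir1943 had the same pattern, at 152 and 175 FPKM in sKO DZ and listed at 0 elsewhere (7.36 ± 0.12, adjusted p = 1.98e-06, limma). Mir3112 was listed at 0 in sKO LZ and dKO DZ, at 119 and 124 FPKM in dKO LZ and at 161 and 92.2 FPKM in sKO DZ (13.88 ± 0.32, adjusted p = 1.15e-05, limma). Genes this short take a high FPKM from few fragments, and a listed 0 can be a failed estimate.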

How the results depend on the processing

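The LZ count of 3299 called genes was 713 when a change of at least 0.5 was required, 2177 when only the LZ libraries were fitted, and 1703 to 3140 when 1 library was left out. Other pseudocounts, filters, scalings and variance priors gave counts within 1.5 times of it. For the difference between zones the count of 3 was 5 without a filter on low values, 5 with a robust variance prior, 0 when libraries were rescaled without small RNA genes, which leaves out the genes called, and 3 to 6 with 1 library left out. Same-numbered libraries correlated in their deviations from the group means at 0.101 (LZ) and 0.124 (DZ) between genotypes and at 0.0610 (sKO) and -0.0976 (dKO) between zones. The labels do not say that the numbers pair libraries, and they were taken as numbers only. With the replicate block, which pairs genotypes within a zone and does not pair zones, 2426 genes were called in LZ. For the difference between zones the block gave 7.

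The alternatives were followed for 206 named genes called in LZ. Of these, 192 kept their call and direction in every alternative run, the block included. The call was not kept in every run for 14 (Bach1, Batf, Bst2, Cd74, Cd83, Cd86, H2-Aa, H2-DMa, Mafg, Mpeg1, Olfr98, Qars, Tnfrsf13c and Tyrobp). The cause was not tested. Most named genes were chosen for large changes or low p in these same data, so kept calls were largely fixed by that choice. With only the LZ libraries fitted, 2120 of all 3299 called genes stayed called. Values that changed sign were Cd74 with quantile normalization (0.11) and 6 with 1 library left out. Their ranges over such fits were -0.56 to 2.50 for S100a8, -0.36 to 1.22 for Hba-a1, -1.55 to 0.51 for Fos, -1.30 to 0.57 for Jun, -1.64 to 0.66 for Dusp1 and -0.042 to 0.047 for Cxcr4. Cxcr4, whose main difference is near 0, was -0.033 with the upper quartile, -0.057 with the upper quartile of the genes tested, -0.066 with quantile normalization, -0.031 with the median ratio and -0.015 without small RNA genes. In the simulation 34% of changes of 0.3 were recovered at 2 libraries in a group. Far fewer genes were changed there than were called in the data, so this share holds for that setting only.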
